A study of Mus musculus with 58 samples.

Results

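The transcripts described here encode enzymes of the citric acid cycle. They were the rows of the count table whose symbol was Cs, Idh2, Idh3a, Ogdh, Dlst, Suclg1, Sdha, Fh1 or Mdh2, and all 9 were found among 52459 symbols. All 9 also passed the filter for expressed genes, a median above 4 normalized counts over the libraries. RNA was measured in 58 retinas, with 1 library per retina, from mice kept in 12 h of light and 12 h of dark. Retinas were collected at Zeitgeber time (ZT) 1, 5, 9, 13, 17 and 21, where ZT counts hours from lights on, so the last 3 times fall in the dark. The diabetic group was heterozygous for the Akita allele of Ins2 (C57BL/6-Ins2Akita/J), which encodes a misfolded insulin and makes the mice hyperglycaemic from a young age. The control group was their wild-type littermates, and every mouse was a male of 4 months that was perfused with saline before the retina was taken. The groups held 5, 6, 5, 5, 5 and 4 control libraries and 5, 5, 5, 4, 4 and 5 diabetic libraries at ZT1 to ZT21.

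The citric acid cycle oxidises the acetyl group of acetyl-CoA in the mitochondrial matrix and passes the electrons, as NADH and as reduced flavin, to the respiratory chain. Rods and cones hold most of the mitochondria of the retina, packed in their inner segments, and their demand for ATP is known to be higher in the dark, when the channels of the outer segment stand open. Photoreceptors also ferment much of their glucose to lactate, so flux through the cycle is not set by glucose uptake alone. A transcript level says nothing directly about the flux or the amount of an enzyme.

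Between 7773117 and 22147398 reads were counted in a library, which gave each member at least 143 reads (Idh2) and at most 6779 reads (Ogdh) in a library. Rod markers dominated the libraries, with 8 of 8 expressed and a summed level of 531115 to 806491 normalized counts, and the markers of cones, Muller glia, bipolar, amacrine and ganglion cells, endothelium and microglia were all expressed. Blood markers were not expressed (0 of 6). Lens markers, of which Lim2 had no read, summed to a median of 26.7 normalized counts, but 3 control libraries, at ZT1, ZT17 and ZT21, reached 28966 to 43635, so the counts that changed without these are given below. In bulk tissue, fewer cells of a type and less RNA per cell cannot be told apart.

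The 9 transcripts differed widely in level per length and little between libraries. Expressed as normalized counts per kilobase of exon (mean ± SD, n = 58), Sdha stood highest at 949 ± 51.7, followed by Ogdh at 741 ± 60.4, Mdh2 at 553 ± 55.0, Cs at 365 ± 31.8 and Idh3a at 248 ± 19.9. Fh1 followed at 148 ± 10.4, then Dlst at 131 ± 5.56, Suclg1 at 129 ± 9.28 and Idh2 at 102 ± 11.9. Dlst and Suclg1 did not differ beyond their spread, while all other neighbours in this order differed by more than the sum of their SDs, Fh1 and Dlst only just. Among 18334 expressed genes with a known length, Sdha lay at percentile 98.3 of this scale and Idh2 at percentile 65.8. The coefficient of variation over all 58 libraries was 4.24% for Dlst, 5.44% for Sdha and 11.7% for Idh2, with a median of 8.01% over the 9. The median over 7763 expressed genes of like level was 10.1%.

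**Figure D1:**
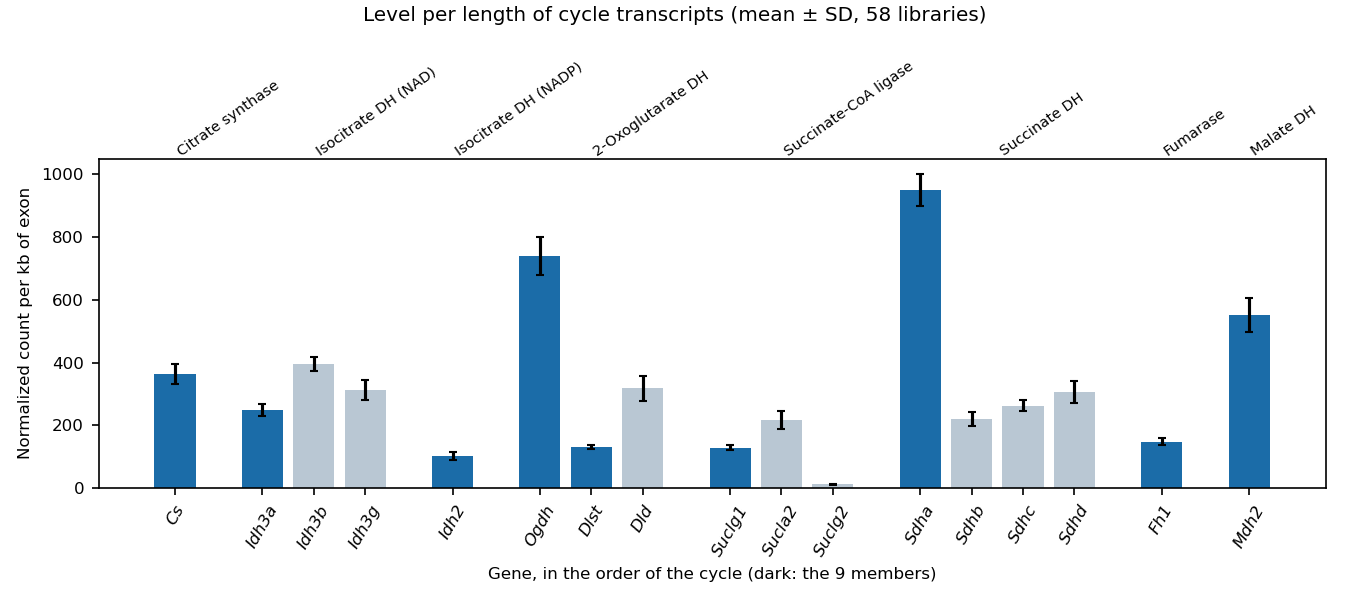
Mean level per length of cycle transcripts over 58 libraries, as normalized counts per kilobase of exon, with bars of 1 SD, in the order of the reactions. Dark bars are the 9 members and pale bars partner subunits; Sdha (949) and Ogdh (741) stand far above their partner subunits, and Suclg2 is lowest at 11.6.

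Within the multi-subunit enzymes, the members were not present in even proportions. Sdha, the flavoprotein that oxidises succinate, stood 4.37 ± 0.49 times above the iron-sulphur subunit Sdhb per kilobase in control retinas in the light (SD, n = 16). There Sdha was at 946 ± 40.1 normalized counts per kilobase, Sdhc at 263 ± 15.8 and Sdhd at 309 ± 35.7. Ogdh, the E1 component of the 2-oxoglutarate dehydrogenase complex, stood 5.37 ± 0.37 times above its E2 component Dlst in the same retinas. Its ratio to the E3 component Dld was lower, at 2.26 ± 0.43. Idh3a, the catalytic subunit of the NAD-linked isocitrate dehydrogenase, lay below its partner subunits, at 0.603 ± 0.045 of Idh3b and 0.773 ± 0.085 of Idh3g. For succinate-CoA ligase, the shared subunit Suclg1 was at 0.593 ± 0.081 of the ATP-specific Sucla2 and 12.0 ± 2.47 times the GTP-specific Suclg2. These ratios depend on the exon model used for length, since the isoform in each retina is not known.

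The first comparison asked whether diabetes changed the level of these enzymes, independent of time of day. It did not change any of the 9 past the threshold. Over all time points, edgeR's quasi-likelihood test called 0 of 9 members at an adjusted p under 0.05, while it called 572 of 19120 expressed genes (2.99%). At an unadjusted p under 0.05 it called 0 of 9, beside 2970 of 19120 genes. DESeq2 also called 0 of 9 at an adjusted p under 0.05, beside 669 of 19120 genes. The median log2 fold change of the members was 0.00, as was that of all genes tested.

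Idh2, the NADP-linked isocitrate dehydrogenase of the matrix, which supplies reducing power to glutathione, came nearest. In the light it ranged from 203 to 309 normalized counts in control retinas (median 244) and from 233 to 301 in diabetic retinas (median 267). In the dark it ranged from 199 to 327 in control retinas (median 257) and from 241 to 358 in diabetic retinas (median 271). The diabetic libraries thus sat within the control range apart from 1 library in the dark. The fitted difference was 6.13% higher in diabetes (95% interval -0.0082 to 12.6%, adjusted p = 0.32, edgeR). Of the remaining 8 members, Cs, Idh3a, Ogdh and Dlst had positive estimates of 0.17% to 1.87%, and Suclg1, Sdha, Fh1 and Mdh2 negative ones of -0.41% to -2.55%. Over all 9 members the intervals ran from -6.86% to 12.6%, so changes larger than these in either direction lay outside the intervals.

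Single time points gave the same count. Across 54 tests of a member at a time point, 25 estimates were positive and 29 negative, and edgeR called 0 of them (DESeq2 0), with 1 at an unadjusted p under 0.05. Among all genes, the tests called 0.0105% for ZT1, 0.0209% for ZT5, 0.00523% for ZT9 and 0.167% for ZT17. For ZT13 and ZT21 they called 0.0% each, where 852 and 892 genes had an unadjusted p under 0.05 and DESeq2 called 1 and 2. At ZT17, 1686 of 19120 genes had an unadjusted p under 0.05. The 1 test was Idh3a at ZT17, where the 5 control libraries held 1147, 1415, 1252, 1316 and 1338 normalized counts and the 4 diabetic libraries 1474, 1447, 1272 and 1549. In 3 of the 4 diabetic libraries Idh3a was above every control library of that time, and the fourth lay inside the control range. The estimate was 10.8% higher in diabetes (95% interval 1.3 to 21.2%, unadjusted p = 0.0266, adjusted p = 0.47, edgeR), or 0.15 on the log2 scale. After the correction for GC content and length described below it was 0.10 (adjusted p = 0.60, edgeR).

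**Figure D2:**
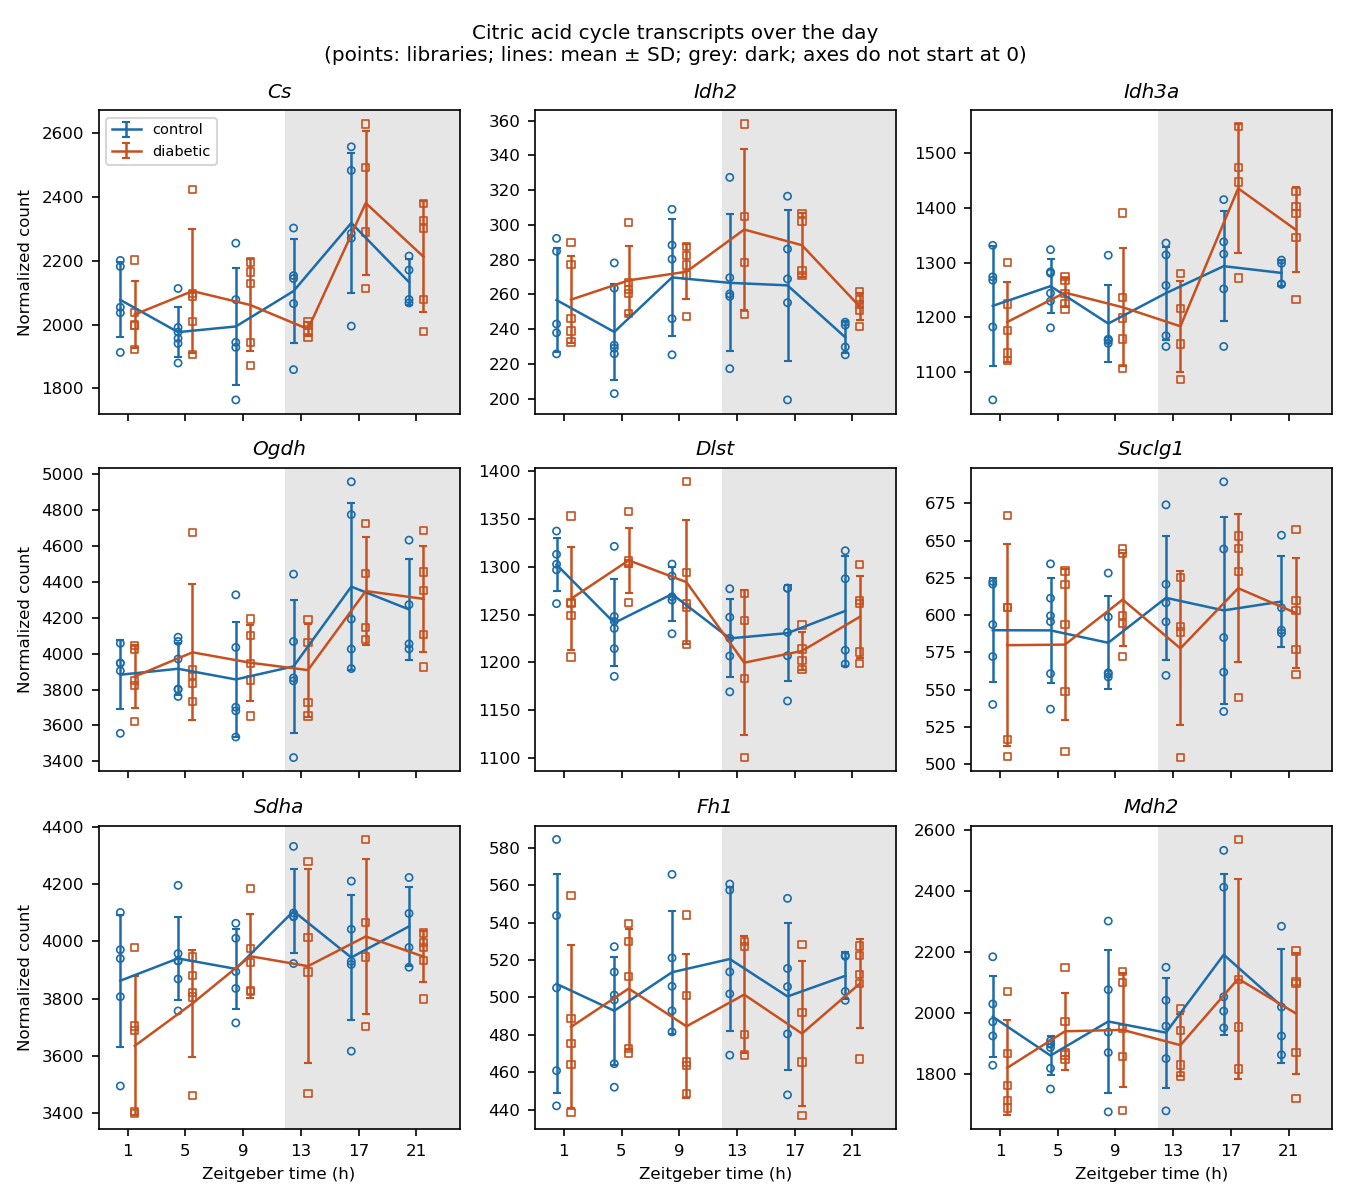
Normalized counts of the 9 transcripts at 6 Zeitgeber times (h) in control (circles) and diabetic (squares) libraries, with lines through the group means, bars of 1 SD and the dark phase in grey. The vertical axes do not start at 0; Cs, Ogdh and Mdh2 have their highest group mean at ZT17 in both genotypes, and Dlst has its lowest at ZT13.

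The second comparison asked which of the transcripts followed a daily rhythm. Rhythm was scored with the empirical JTK_CYCLE test, which compares the ranks of a series with waves of a 24 h period, and a transcript was called rhythmic at an unadjusted p under 0.05 with its highest library more than 25% above its lowest. In control retinas 1 of 9 members was rhythmic, citrate synthase, beside 21.8% of all expressed genes. In diabetic retinas 5 of 9 were rhythmic, Idh2, Idh3a, Ogdh, Dlst and Sdha, beside 23.9% of all expressed genes. With Benjamini-Hochberg adjusted p-values, 0 of 9 members in control retinas (8.23% of all genes) and 1 of 9 in diabetic retinas (10.3% of all genes, Dlst) remained. The edgeR test of the cosine terms, at an unadjusted p under 0.05 and the same size, called 2 members in control retinas and 3 in diabetic retinas. Without the limit on size it called 25.4% and 26.5% of all genes. The share of all genes with the limit was not counted, so these member counts have no share under the same rule.

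Cs encodes citrate synthase, which joins acetyl-CoA to oxaloacetate at the entry of the cycle, and lies on chromosome 10 from 128337734 to 128362479 (GRCm38, plus strand). At ZT5 its 6 control libraries ranged from 1880 to 2113 normalized counts with a median of 1967. At ZT17 the 5 control libraries held 2482, 2285, 2556, 1995 and 2270. Of these 5, 4 were above every ZT5 control library and 1 fell within their range. In diabetic retinas the highest mean was also at ZT17, where 4 libraries held 2289, 2627, 2112 and 2492, but the lowest was at ZT13, where 4 held 1977, 1998, 2008 and 1960. The 5 diabetic libraries of ZT5, at 2096, 2088, 2010, 2422 and 1907, overlapped those of ZT17, while those of ZT13 did not. In control retinas the rhythm test gave p = 0.00605 (adjusted p = 0.061, permutation of the series), with an amplitude of 7.01 ± 1.79% of the mean level (SE) and a peak at ZT18.0 ± 1.00 h. In diabetic retinas it gave p = 0.0751 (permutation), with an amplitude of 5.41 ± 2.24% and a peak at ZT18.6 ± 1.60 h, and was not called.

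Idh3a, on chromosome 9 from 54586334 to 54604661 (plus strand), had p = 0.0107 in diabetic retinas (permutation of the series), an amplitude of 7.20 ± 2.15% and a peak at ZT18.6 ± 1.16 h. Its 4 diabetic libraries at ZT13 held 1280, 1217, 1151 and 1087 normalized counts, and its 5 diabetic libraries at ZT21 held 1430, 1232, 1389, 1403 and 1346. Together with the ZT17 values above, 7 of the 9 diabetic libraries of the last 2 times lay above all 4 of ZT13. The call was lost without ZT17 or ZT21 (permutation p = 0.157 and 0.291) and with adjusted p-values. In control retinas its amplitude was 2.82 ± 1.65% (p = 0.239, permutation), with group means from 1189 to 1294.

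Idh2, on chromosome 7 from 80094846 to 80115392 (minus strand), peaked earlier than Idh3a, at ZT12.9 ± 1.23 h in diabetic retinas, with an amplitude of 7.19 ± 2.36% and p = 0.0162 (permutation). Its mean was highest at ZT13, 297, where the 4 diabetic libraries held 305, 278, 248 and 358, and lowest at ZT21, 253, where 5 libraries held 241, 262, 254, 257 and 251. The 2 groups overlapped through 1 library of ZT13. Without ZT17 or ZT21 the call was lost (permutation p = 0.059 and 0.084), as it was with adjusted p-values. In control retinas the fitted peak was near the same hour, ZT12.8 ± 2.39 h, with p = 0.433 (permutation).

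Ogdh and Dlst, which encode neighbouring components of 1 complex, peaked at opposite ends of the day in diabetic retinas. The complex converts 2-oxoglutarate to succinyl-CoA, with Ogdh as the thiamine-dependent dehydrogenase and Dlst as the lipoyl-bearing core. Ogdh peaked at ZT18.7 ± 1.53 h (amplitude 4.83 ± 1.91%, p = 0.0272, permutation) and Dlst at ZT4.42 ± 1.04 h (amplitude 3.92 ± 1.10%, p = 0.00378, adjusted p = 0.041, permutation). The call of Ogdh was lost without ZT1, ZT17 or ZT21 (permutation p = 0.097, 0.194 and 0.239), with the edgeR cosine test (p = 0.072), with adjusted p-values (adjusted p = 0.142, permutation) and, through the limit on size, with the GC and length correction. In control retinas the fitted peaks were at ZT18.6 ± 1.29 h for Ogdh and ZT1.96 ± 1.84 h for Dlst, neither called (p = 0.0794 and p = 0.194, permutation). Dlst held 1304, 1306, 1358, 1263 and 1304 normalized counts in the diabetic libraries of ZT5, 1202, 1193, 1214 and 1239 in those of ZT17, and 1272, 1244, 1183 and 1100 in those of ZT13. Every diabetic library of ZT5 was thus above every one of ZT17, and 1 library of ZT13 reached into the range of ZT5. The ratio of highest to lowest diabetic library was 1.26 for Dlst, close to the limit for a call, and its rhythm was not called without ZT5 (p = 0.125, permutation) or, through this limit, without ZT9 or ZT13.

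Sdha had p = 0.0272 in diabetic retinas (permutation), with an amplitude of 3.95 ± 1.55% and a peak at ZT14.7 ± 1.44 h. The call was lost without ZT1 or ZT5 (permutation p = 0.266 and 0.158), with TMM scaling (0.061), with the edgeR cosine test (p = 0.078) and with adjusted p-values. Its lowest group was diabetic ZT1, with libraries of 3980, 3688, 3704, 3406 and 3398 normalized counts. Mdh2, the malate dehydrogenase that closes the cycle, was not called in either genotype, with amplitudes of 5.93 ± 2.38% in control (p = 0.122, permutation) and 3.99 ± 2.7% in diabetic retinas (p = 0.335, permutation). Suclg1 and Fh1, whose products form succinate and malate, had amplitudes of 0.47% to 2.07% and p-values of 0.870 to 0.987 (permutation) in both genotypes.

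The counts of rhythmic members also changed with a correction for GC content and length. Libraries differed in a trend of read count with the GC content of genes, and the levels of 4 members, Cs, Ogdh, Mdh2 and Idh2, moved with it, as described below. With counts corrected for GC content and gene length within each library, 3 of 9 members were called in control retinas (Cs, Idh3a and Ogdh), beside 25.7% of all genes, and 4 of 9 in diabetic retinas, beside 27.9% of all genes. The call of Cs in control retinas rested on ZT17 and ZT5, with a permutation p of 0.144 without ZT17 and 0.0600 without ZT5. It was called without the 3 lens-rich libraries (p = 0.0148, permutation). Of all genes, 13.2% were called in control retinas without ZT17 and 15.9% without ZT5. In diabetic retinas 2 members were called without ZT17 and 2 without ZT21, where the share of all genes was 16.3% and 16.4%.

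**Figure D3:**
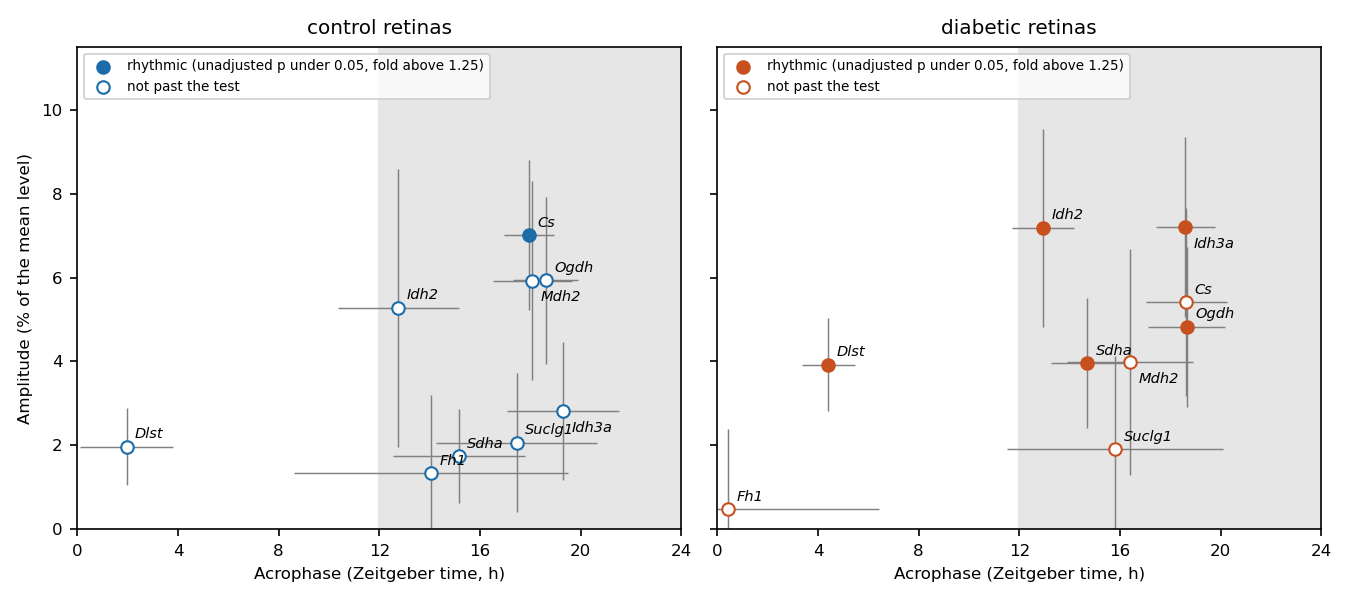
Acrophase (Zeitgeber time, h) against amplitude (% of the mean level) from a fitted 24 h cosine, with bars of 1 SE (the horizontal bar is cut at 6 h), in control (left) and diabetic (right) retinas. Filled points passed the rhythm test, 1 in control and 5 in diabetic retinas; Dlst peaks in the light and the other called transcripts in the dark.

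A call in 1 genotype and not in the other is not a difference between them, so the difference was tested itself. The interaction of genotype with the cosine terms (edgeR, adjusted p under 0.05) called 0 of 9 members and 0.0% of all genes. At an unadjusted p under 0.05 it called 0 of 9 members and 657 of 19120 genes, and DESeq2 called 0 genes. The smallest unadjusted p-values among the members were 0.293 for Idh3a and 0.325 for Dlst (edgeR). The fitted peak of Idh3a differed by -0.71 ± 2.50 h between diabetic and control retinas (SE) and its amplitude by 4.39 ± 2.71 percentage points. For Dlst the fitted peak differed by 2.46 ± 2.11 h and the amplitude by 1.96 ± 1.43 points. The fitted peaks of Cs, Idh2, Ogdh and Sdha differed by 0.03 to 0.69 h in size, with SEs of 1.89 to 2.99 h. Those of Suclg1 and Mdh2 differed by -1.65 ± 5.37 h and -1.68 ± 2.97 h, and that of Fh1 by 10.4 ± 16.4 h. With such errors, shifts of several hours could not be detected.

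The third comparison set the 3 dark times against the 3 light times, which gives a direction without assuming a wave. In both genotypes 8 of 9 members had a positive estimate in the dark and Dlst a negative one. Some signs were not stable. Idh2 in control retinas had a log2 estimate of 0.002, which other settings took as low as -0.029. Fh1 had 0.013 in control and 0.009 in diabetic retinas, which reached -0.0024 and -0.0068 with a library left out. In diabetic retinas 2 of 9 passed the test, Idh3a higher in the dark and Dlst lower, where 6.54% of all genes were called higher and 7.72% lower. In control retinas 0 of 9 passed with edgeR, where 3.91% of all genes were called higher and 4.1% lower. There, 2 of 9 members (Cs and Ogdh) and 4222 of 19120 genes had an unadjusted p under 0.05 (edgeR). DESeq2 called 1 member (Cs, adjusted p = 0.039) and 8.72% of all genes. The median log2 fold change of the members was 0.05 in control and 0.06 in diabetic retinas, against -0.01 for all genes in both.

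Idh3a ranged from 1107 to 1391 normalized counts over 15 diabetic libraries in the light (median 1225) and from 1087 to 1549 over 13 in the dark (median 1346). The ranges overlapped, with 10 of 13 dark libraries above the light median and 5 above every light library. It rose by a log2 fold change of 0.11 ± 0.04 (SE), or 8.01% (95% interval 2.59 to 13.7%, adjusted p = 0.034, edgeR). Leaving out any 1 of 8 diabetic libraries ended this call (adjusted p = 0.050 to 0.079, edgeR). In control retinas the estimate was 3.81% (interval -1.3 to 9.12%, adjusted p = 0.39, edgeR).

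Dlst ranged from 1206 to 1389 normalized counts in diabetic retinas in the light (median 1263) and from 1100 to 1303 in the dark (median 1214). Here 3 of 13 dark libraries were above the light median and 5 were below every light library. The log2 fold change was -0.08 ± 0.03, or -5.52% (interval -8.83 to -2.10%, adjusted p = 0.023, edgeR). In control retinas, from 1185 to 1338 in the light and 1160 to 1317 in the dark, it was -3.03% (interval -6.32 to 0.37%, adjusted p = 0.29, edgeR). Neither Idh3a nor Dlst passed when all genes with a read were tested (adjusted p = 0.070 and 0.23, edgeR). Leaving out any 1 of 3 diabetic libraries also ended the call of Dlst (adjusted p = 0.061 to 0.064, edgeR).

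Cs had a larger estimate in control than in diabetic retinas. Over 16 control libraries in the light it ranged from 1764 to 2255 normalized counts (median 1984), and over 14 in the dark from 1859 to 2556 (median 2162), with 13 of 14 dark libraries above the light median and 5 above every light library. The estimate was 8.0% (interval 2.46 to 13.8%, adjusted p = 0.057, edgeR) in control retinas and 5.41% (interval -0.16 to 11.3%, adjusted p = 0.20, edgeR) in diabetic retinas. Ogdh had 7.26% (interval 1.75 to 13.1%, adjusted p = 0.090, edgeR) in control retinas, from 3536 to 4328 in the light and 3421 to 4958 in the dark, and 5.65% (interval 0.05 to 11.6%, adjusted p = 0.18, edgeR) in diabetic retinas. Without the 3 lens-rich libraries, both passed in control retinas (adjusted p = 0.0498 for Cs and 0.040 for Ogdh, edgeR), as they did after correction for GC content and length (0.017 and 0.018), and diabetic retinas then had 2 and 4 members called. Of all genes, 8.32% (control) and 13.8% (diabetic) were called under the first setting and 13.1% and 20.4% under the second, against 8.0% and 14.3% without either. Mdh2, Sdha, Suclg1 and Fh1 had estimates of 0.62% to 5.29% in the 2 genotypes.

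The change from light to dark did not differ detectably between genotypes for any member. The interaction called 0 of 9 (edgeR, 0 of 9 at an unadjusted p under 0.05, DESeq2 0) and 0.0% of all genes, where 642 genes had an unadjusted p under 0.05 and DESeq2 called 2. The estimates ran from -2.57% for Dlst to 4.06% for Idh2, with the interval of Idh3a from -3.16 to 11.8%.

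**Figure D4:**
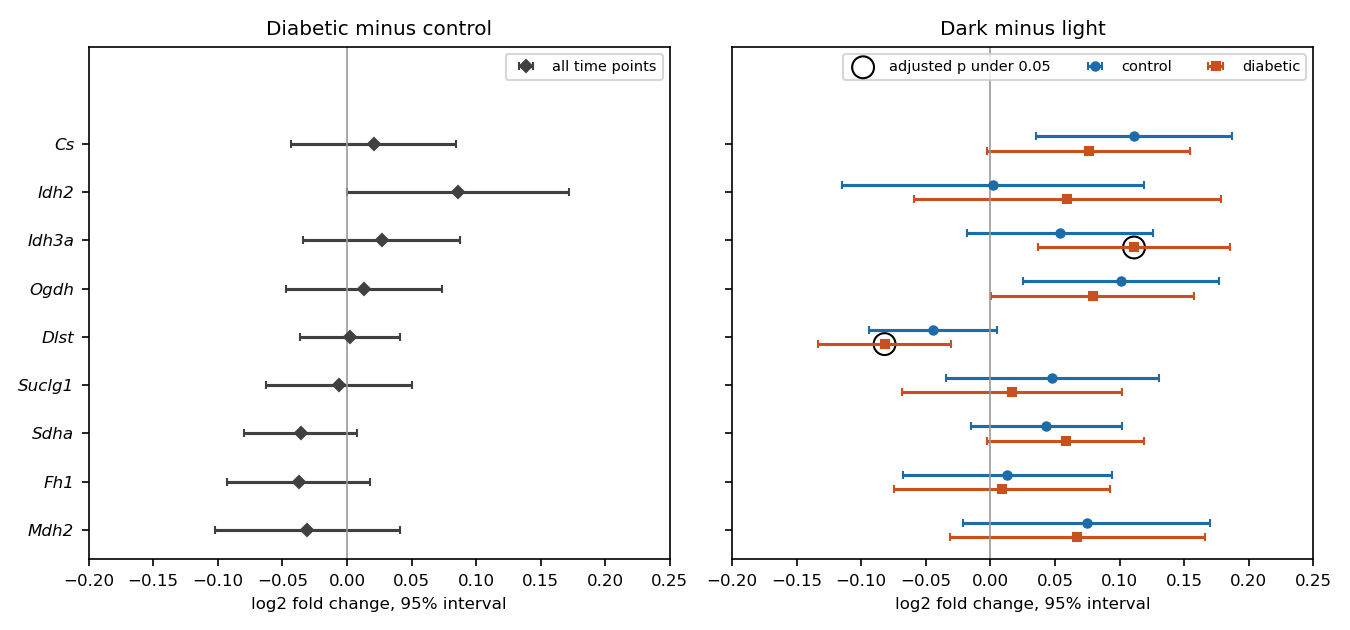
Log2 fold changes of the 9 transcripts with 95% intervals: diabetic minus control over all time points (left) and dark minus light within control and diabetic retinas (right). Rings mark an adjusted p under 0.05 (edgeR), which only Idh3a and Dlst in diabetic retinas reached; all estimates lie between -0.08 and 0.11.

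Other measures moved between light and dark too. The summed level of 8 pigment epithelium markers, 7 of them expressed, ranged from 292 to 2020 normalized counts in control retinas in the light and from 559 to 3001 in the dark. In diabetic retinas it ranged from 266 to 1583 in the light and from 824 to 3278 in the dark. The 6 bipolar cell markers, all expressed, summed to 17730 to 22474 in the light and 22187 to 26249 in the dark in control retinas, and to 16180 to 21518 and 21352 to 25113 in diabetic retinas. The 8 rod markers summed to medians of 650354 and 659354 in control retinas and of 614313 and 639429 in diabetic retinas, with overlapping ranges. The 6 Muller glia markers, all expressed, summed to 45883 to 58815 in the light and 49019 to 64159 in the dark in control retinas, and to 43935 to 60425 and 52166 to 66243 in diabetic retinas. Malat1, a nuclear RNA, had medians of 224502 in the light and 199362 in the dark in control retinas and of 218233 and 193405 in diabetic retinas. The part of these in the values of the cycle transcripts was not tested.

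The ratio of Ogdh to Dlst per kilobase had a higher median in the dark in both genotypes, with overlapping ranges. It ranged from 4.74 to 6.01 in control light libraries (median 5.31) and from 5.13 to 7.05 in control dark libraries (median 5.84). In diabetic retinas it ranged from 4.95 to 6.49 in the light (median 5.25) and from 5.15 to 6.95 in the dark (median 6.01). The pair was chosen after the values were seen, so this is a description with no test. To let the start regions of both genes be compared, the 250 bases before a RefSeq start site are shown for each, 5′ to 3′ on the plus strand of GRCm38.p6, with capitals marking matches to any of 8 motifs searched on both strands. For Ogdh, at chr11:6291347-6291596, the most upstream of its 6 listed start sites was taken. For Dlst the window is chr12:85110583-85110832.
Ogdh: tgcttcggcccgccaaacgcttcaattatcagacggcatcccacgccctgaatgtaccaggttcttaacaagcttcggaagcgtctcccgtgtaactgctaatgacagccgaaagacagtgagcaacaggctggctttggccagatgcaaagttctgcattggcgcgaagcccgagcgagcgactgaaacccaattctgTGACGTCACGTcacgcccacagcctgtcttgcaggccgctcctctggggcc
Dlst: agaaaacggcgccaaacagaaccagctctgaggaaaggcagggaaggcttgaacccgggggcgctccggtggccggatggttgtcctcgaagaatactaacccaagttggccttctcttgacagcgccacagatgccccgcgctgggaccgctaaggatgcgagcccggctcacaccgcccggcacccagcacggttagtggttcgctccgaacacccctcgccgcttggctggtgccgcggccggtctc

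The Ogdh window held a full cAMP response element (TGACGTCA) from base -51 before the start, which shares 2 bases with a hypoxia response core read on the other strand (CACGT, from base -45). The Dlst window held no match to these motifs. Promoter sequences were matched for 8 of the 9 members, all but Idh3a. The cAMP response element was found in Ogdh and Mdh2 and in 1.55% of 32851 mouse promoter windows, each from 250 bases before to 50 after a start site, and the core ACGTG in Ogdh and Sdha and in 16.6% of all windows. Windows of other Ogdh start sites held the NRF1 motif GCGCATGCG (1.45% of all windows) and the E-box CACGTG (6.02%), and Fh1 held the ROR motif AGGTCA (14.0%). The estrogen-related receptor motif TCAAGGTCA (0.387% of all windows), the ETS motif CCGGAAGT (2.88%) and the D-box TTATGTAA (0.819%) were found in none of the 8. Some of these motifs contain one another, as TCAAGGTCA holds AGGTCA and CACGTG holds ACGTG.

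Apart from time and genotype, some of the transcripts moved together from library to library. Correlations were taken over the 58 libraries after the mean of each group of genotype and time was removed from the log2 values, with 45 relations in the family and 100000 permutations within groups. Of 36 pairs of members, 13 passed an adjusted p of 0.05 and all 13 were positive. The share of pairs of other expressed genes that would pass was not tested, so this count has no background beside it. Cs, Ogdh and Mdh2 formed the closest set. Pearson's r was 0.85 for Cs and Ogdh (Spearman's rho 0.85), 0.85 for Cs and Mdh2 (rho 0.81) and 0.86 for Ogdh and Mdh2 (rho 0.87), each with a permutation p of 1e-05 by both measures, the smallest the permutations can give (adjusted p = 7.5e-05). Without the 2 libraries farthest on the first measure the values were 0.83, 0.85 and 0.86. Within control libraries they were 0.87, 0.88 and 0.93, within diabetic libraries 0.83, 0.83 and 0.78, and within single replicate numbers they ranged from 0.43 to 0.93.

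Among Idh3a, Sdha, Suclg1 and Fh1, 4 of 6 pairs passed, and Idh3a with Suclg1 and Suclg1 with Fh1 did not (adjusted p = 0.08 each, permutation). The groups were also joined, since Suclg1 passed with Cs (r = 0.43), Ogdh (0.37) and Mdh2 (0.45) and Sdha with Cs (0.42) and Mdh2 (0.40). Pearson's r was 0.58 for Suclg1 and Sdha (rho 0.46, permutation p = 0.00013 and 0.00173, adjusted p = 0.00084 for r), though 0.24 within control and 0.82 within diabetic libraries and -0.41 to 0.85 within replicate numbers. It was 0.56 for Idh3a and Sdha (rho 0.54, permutation p = 0.00016 for both, adjusted p = 0.0009) and 0.52 for Idh3a and Fh1 (rho 0.50, permutation p = 0.00077 and 0.00085, adjusted p = 0.0035). Without the 2 farthest libraries the 3 values were 0.52, 0.49 and 0.43, and the Idh3a pairs stood at 0.51 to 0.58 within either genotype. Dlst passed with Idh3a (r = 0.39, rho 0.43, permutation p = 0.00716 and 0.00258, adjusted p = 0.020), at 0.09 after the correction described next, and not with Ogdh (r = 0.04, rho = 0.05, permutation p = 0.781 and 0.764). Idh2 had no pair past the adjusted threshold.

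The trend of read count with GC content moved with Cs, Ogdh, Mdh2 and Idh2. The within-group level of Ogdh correlated with this trend at r = 0.82 (rho 0.82), Mdh2 at r = 0.83 (rho 0.81), Cs at r = 0.73 (rho 0.70), each with a permutation p of 1e-05, and Idh2 at r = 0.53 (rho 0.48, permutation p = 0.00028 and 0.00096). Without the 2 farthest libraries the values were 0.82, 0.79, 0.72 and 0.45, and for Cs they ranged from 0.05 to 0.82 within replicate numbers. For Sdha r was -0.05 (rho -0.0022, permutation p = 0.765 and 0.989) and for Dlst -0.07 (rho -0.07, permutation p = 0.608 and 0.651). After correction of each library for GC content and length, r was 0.72 for Cs and Ogdh, 0.68 for Cs and Mdh2 and 0.60 for Ogdh and Mdh2, and Idh3a then stood at 0.73 with Cs, 0.62 with Mdh2 and 0.54 with Ogdh. For Idh3a and Sdha r went from 0.56 to 0.33 with the correction, for Idh3a and Fh1 from 0.52 to 0.39 and for Sdha and Fh1 from 0.43 to 0.19, while Suclg1 and Sdha stood at 0.52. The median over the 36 pairs was 0.28 before and 0.27 after the correction.

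**Figure D5:**
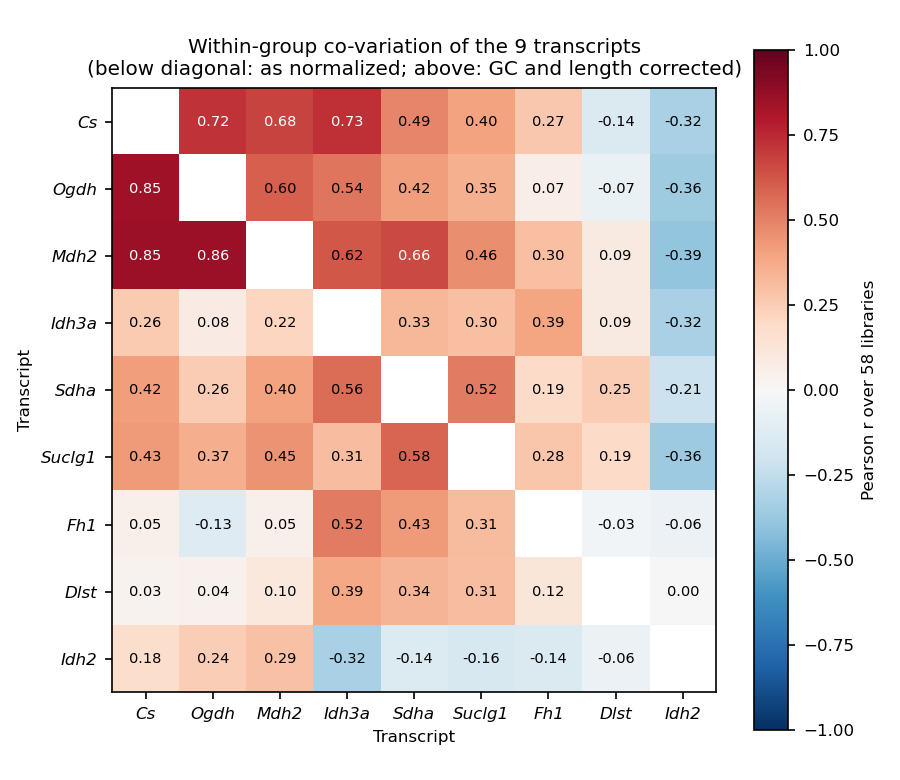
Pearson's r between the within-group log2 levels of each pair of transcripts over 58 libraries, as normalized (below the diagonal) and after correction for GC content and length (above it); colour runs from -1 to 1. Cs, Ogdh and Mdh2 stand at 0.85 to 0.86 below the diagonal and at 0.60 to 0.72 above it, and Idh2 is negative with 7 of 8 partners above it.

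Over the 12 group means, the members shared a profile to an uneven degree. The correlation of a member with the mean standardized profile of the other 8 was 0.83 for Mdh2, 0.82 for Cs, 0.75 for Ogdh and 0.70 for Idh3a, against -0.05 for Fh1, -0.09 for Idh2 and -0.42 for Dlst. Among 12948 genes with a mean above 50 normalized counts, the 5 most alike outside the lists of cycle and linked genes were Nfe2l1 (r = 0.95), Chn1 (0.94), Atp5a1 (0.94), Atp5b (0.93) and Hint1 (0.93), by their correlation with the mean profile of the 9 over 12 points that share the 58 libraries. These are the highest of many values, given as a description. Nfe2l1 encodes a transcription factor of proteasome genes, and Atp5a1 and Atp5b the alpha and beta subunits of the ATP synthase. Of the 8 partner subunits outside the 9, Sdhb was nearest, at 0.77, and Dld, the E3 component of the 2-oxoglutarate dehydrogenase complex, was at -0.44.

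Of the 8 partner subunits, 0 differed between genotypes over all time points (edgeR, 2.99% of all genes called). At an unadjusted p under 0.05 there was 1 of 8, beside 2970 of 19120 genes. In control retinas 1 of 8 was rhythmic, beside 21.8% of all genes, Suclg2 (peak at ZT12.7 ± 1.02 h). Exons of Idh3b overlap those of a gene on the other strand by 5 of 3422 bases, and the strand setting behind its counts is not stated. No member has such an overlap. In diabetic retinas 2 of 8 were rhythmic, beside 23.9% of all genes, Suclg2 (peak at ZT13.0 ± 1.2 h) and Sdhb (peak at ZT15.9 ± 1.17 h). Sdhb was the 1 of 8 that rose in the dark in diabetic retinas, where 6.54% of all genes were called higher, by 10.8% (interval 3.03 to 19.1%, adjusted p = 0.047, edgeR), while its partner Sdha had 4.12% there.

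Of 27 genes of linked reactions, carriers and assembly factors, 0 differed between genotypes over all time points (edgeR), beside 2.99% of all genes. At an unadjusted p under 0.05 there were 4 of 27, beside 2970 of 19120 genes. The rhythm test called 8 in control retinas (21.8% of all genes) and 5 in diabetic ones (23.9%). Some of these, such as Slc25a11 (189 bases) and Mdh1 (52 bases), have exons that overlap those of a gene on the other strand. Got1, the cytosolic aspartate aminotransferase of the malate-aspartate shuttle, rose in the dark by a log2 fold change of 0.23 ± 0.04 in control (adjusted p = 0.00013) and 0.24 ± 0.04 in diabetic retinas (adjusted p = 7.2e-05, edgeR). Acly, which cleaves exported citrate in the cytosol, rose by 0.10 ± 0.03 (adjusted p = 0.040) and 0.11 ± 0.03 (adjusted p = 0.024). Slc25a12, the aspartate-glutamate carrier of the same shuttle, rose by 0.13 ± 0.03 in diabetic retinas (adjusted p = 0.00077) and had 0.07 ± 0.03 in control retinas (adjusted p = 0.094). In all, 2 of 27 in control and 3 of 27 in diabetic retinas were called higher in the dark (3.91% and 6.54% of all genes) and 0 of 27 lower in each (4.1% and 7.72%).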

How the data were processed

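Total RNA, depleted of ribosomal RNA, was sequenced from single retinas in pairs of 50 base reads. The authors used STAR 2.7.4a with the GRCm38.p5 genome and counted reads on genes of Gencode M15 with HTSeq 0.11.1, as their methods and processing notes state; the strand setting is not given in the sources used here. The deposited values are raw counts, neither normalized nor filtered, and columns were assigned to samples by title. Exon lengths, GC content and positions came from Gencode M21, in which 47982 of 52459 symbols matched once, and promoters from RefSeq.

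Genotype, light and interaction contrasts were fitted to the 19120 genes with a median above 4 normalized counts by edgeR 4.0.16 (quasi-likelihood, TMM factors, R 4.3.3), with Benjamini-Hochberg adjustment over all of them. Rhythm was scored on counts divided by DESeq2 1.42.0 size factors, with a re-implemented empirical JTK_CYCLE test (24 h period, 6 phases, 5 widths, 1000000 shuffled series) in Python 3.11.15. In place of the study's package for differential rhythm, the edgeR interaction was used. Alternatives covered the filter, the scaling, the tool, a GC and length correction, the replicate number as a block, and each library or time left out. Scripts were tested on simulated data.

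The members and the lists were chosen with earlier results of these data known. The members, partner subunits, linked genes past a threshold and the 5 genes most alike in profile were named by rule. Not every gene examined is reported here. Nothing in the labels says whether retinas of 1 mouse were shared between libraries, so p-values measure the spread between libraries. Depth of 7773117 reads or more gives counting errors of at most 8.36% for a member in 1 library (Idh2).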

Additional observations from a re-analysis of the deposited data

Results flagged for a closer look

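In 108 groups of 1 member at 1 genotype and time, 3 held a library far from the others by Dixon's test, where chance flags about 1 in 20 groups. Idh3a reached 1314 normalized counts in replicate 5 of control ZT9, and the other 4 libraries lay between 1153 and 1160. Ogdh reached 4675 in replicate 4 of diabetic ZT5, with the others between 3735 and 3912. Sdha fell to 3462 in replicate 5 of diabetic ZT5, with the others between 3806 and 3945.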

How the results depend on the processing

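The counts of members that differed between genotypes, over all times or at each time, in rhythm or in the change from light to dark, stayed at 0 under every alternative run, each library left out included. The other counts moved. In control retinas, the 1 rhythmic member became 0 with adjusted p-values, without ZT5 or without ZT17, 2 without ZT9 (20.4% of all genes), without ZT13 (23.0%) or with the edgeR cosine test, 3 with the GC and length correction, and 1 to 3 with a library left out. In diabetic retinas, the 5 became 1 with adjusted p-values, 3 without ZT1 (21.3% of all genes) or with the edgeR cosine test, 2 without ZT17 or without ZT21, and 3 to 6 with a library left out. For dark against light in control retinas, the 0 became 1 with a median above 10 (9.14% of all genes) or with DESeq2 (8.72%), 2 with the GC and length correction or without the 3 lens-rich libraries (chosen after seeing the data), and 0 to 2 with a library left out. In diabetic retinas, the 2 became 0 with no filter (5.19% of all genes), 4 with the GC and length correction, and 1 to 2 with a library left out. The cause was not tested. The correction also raised the genes that differed between genotypes from 572 to 971, and dark against light from 1530 to 2505 in control retinas.

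The dark call of Idh3a was lost without each of diabetic ZT13 replicate 1, ZT17 replicates 1, 3 and 5, ZT21 replicates 1 and 4, ZT1 replicate 4 and ZT9 replicate 4 (adjusted p = 0.050 to 0.079, edgeR), and that of Dlst without ZT1 replicate 3, ZT9 replicate 5 or ZT13 replicate 5 (0.061 to 0.064). Cs passed in control retinas without each of control ZT1 replicate 1 or 6, ZT5 replicate 4, ZT9 replicate 4, ZT13 replicate 2 or ZT17 replicate 4, or diabetic ZT5 replicate 4 (adjusted p = 0.022 to 0.048, edgeR), and Ogdh without control ZT13 replicate 2 or ZT9 replicate 4 (0.040 both). In control retinas the rhythm of Ogdh was gained without ZT1 replicate 3, ZT5 replicate 4 or 6, ZT9 replicate 4 or 5, or ZT13 replicate 2 or 4 (permutation p = 0.022 to 0.049), and of Mdh2 without ZT13 replicate 2 (0.048). In diabetic retinas that of Sdha was lost without ZT1 replicate 2, 4 or 5 or ZT17 replicate 1 or 3 (0.054 to 0.072) and with TMM scaling (0.061), and that of Ogdh without ZT1 replicate 2 or ZT17 replicate 3 or 5 (0.051 to 0.072). That of Dlst was lost without ZT9 replicate 5 or ZT13 replicate 5 through the size limit, and Cs was gained without ZT1 replicate 5, ZT5 replicate 4, ZT9 replicate 3, 4 or 5 or ZT21 replicate 2 (0.033 to 0.049).

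The labels do not say that a replicate number marks a shared litter, batch or day. The deviations of same-numbered libraries of the 2 genotypes correlated above 0.1 in 15 of 26 pairs (r from -0.20 to 0.55), so the numbers were not taken to pair them, though 25 of 52 libraries were closest to their own number, which is a hint from the data. With the replicate block, 2 members were called rhythmic in control and 6 in diabetic retinas, and 2 in dark against light in each genotype, where 27.3% and 31.1% of all genes were rhythmic and 10.1% and 15.4% differed in the dark. The replicate block with the GC and length correction gave 3 and 5 rhythmic members, and 2 and 4 in dark against light (31.1% and 35.3%, and 15.6% and 21.9%, of all genes), and a difference of 0.08 (log2) for Idh3a at ZT17 between genotypes.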
